A study of Homo sapiens with 4 samples.

Results

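The 42 genes described here encode proteins of autophagy and of the lysosome, and they were chosen by name: each Ensembl gene on the event lists was matched to a gene symbol by its position, and the rows of 42 listed symbols were kept. All 42 had at least 1 alternative splicing event in at least 1 library, and together they held 2088 of the 287868 distinct events on the lists. The lists come from 4 PacBio full-length cDNA (Iso-Seq) libraries of cells labelled Huh7, an established line of human hepatocellular carcinoma. In 2 libraries the cells had been transfected with an siRNA against STAMBPL1 (siSTAMBPL1), and in 2 with a negative control siRNA (siNC). The cells of all 4 libraries were transfected with a lipid reagent, and the labels give neither the time after transfection nor whether replicates were separate cultures, so p-values measure only the spread between these libraries, which may be technical.

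Macroautophagy encloses cytoplasm in a double membrane and delivers it to the lysosome. A kinase complex around ULK1 starts the process, a lipid kinase complex around PIK3C3 and BECN1 marks the membrane, and ATG9A and the WIPI proteins help to supply and shape it. ATG4 proteases and a conjugation machinery attach ATG8 proteins such as GABARAP and MAP1LC3B to the membrane, where receptors such as SQSTM1 bind them together with cargo. Hydrolases such as the cathepsins then break the cargo down, and the MiT/TFE transcription factors are known to activate many lysosomal genes. STAMBPL1, the target of the siRNA, is a deubiquitinase that cuts ubiquitin chains and has a close relative, STAMBP, that acts in endosomal sorting.

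Each list gives events, not levels. An event has a pair of forms, and for each form the list names the transcripts that carry it. A transcript is either from Ensembl or has an identifier that begins with PB, and those with such an identifier are called PB transcripts here. They are transcripts assembled from the long reads of that library, so a number of PB transcripts counts distinct structures and not reads. A form is called unannotated where no list names an Ensembl transcript for it. First exon starts were read from first exon events alone, so a PB transcript in no such event has no start counted below. Counted starts include Ensembl starts that no PB transcript used in an event. Because no read number is attached, none of the values below is an expression level, and in bulk libraries fewer cells of a type and less RNA per cell could not be told apart either.

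The libraries differed in size. The siSTAMBPL1 libraries listed 119505 and 94432 events with 25463 and 17584 PB transcripts, and the siNC libraries listed 140317 and 142215 events with 32307 and 32750 PB transcripts. STAMBPL1 itself had 1 and 1 events with no PB transcript in the siSTAMBPL1 libraries, against 3 and 6 events with 1 and 4 PB transcripts in the siNC libraries. Among genes that mark hepatocytes or hepatocellular carcinoma lines, FGG and HNF4A had events. ALB, AFP and APOA1 had none, so the lists do not show the cell type that the labels name. CD68, a lysosomal protein of macrophages and of other cells, had 2 and 2 events in the siSTAMBPL1 libraries and 3 and 2 in the siNC libraries, and COL1A1, COL1A2, DCN and LUM had none. Of 3 endothelial markers, PECAM1 had no event, VWF had 0 and 0 in the siSTAMBPL1 libraries and 3 and 0 in the siNC libraries, and CDH5 had 0 and 0 in siSTAMBPL1 and 1 and 6 in siNC. Endothelial events were thus listed in siNC alone (4 and 6 in all), and their part in the results was not tested.

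The 42 genes took a slightly different share of each library. They held 946 and 640 events in the siSTAMBPL1 libraries, which is 7.92 and 6.78 of every 1000 listed events, and 947 and 939 events in the siNC libraries, which is 6.75 and 6.60 of every 1000. The mean was 7.35 ± 0.805 in siSTAMBPL1 and 6.68 ± 0.103 in siNC (SD, n = 2 each). Replicate 2 of siSTAMBPL1 lay next to the siNC libraries, and the difference of siSTAMBPL1 minus siNC, 0.671 per 1000, was 0.102 without replicate 1. PB transcripts of the 42 genes numbered 257 and 160 in the siSTAMBPL1 libraries, or 10.1 and 9.10 per 1000 PB transcripts, and 247 and 228 in the siNC libraries, or 7.65 and 6.96 per 1000. By this measure the groups did not overlap, with means of 9.60 ± 0.703 in siSTAMBPL1 and 7.30 ± 0.483 in siNC (SD, n = 2 each). No test was made of either share, because the genes were chosen with results of these libraries known.

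**Figure D1:**
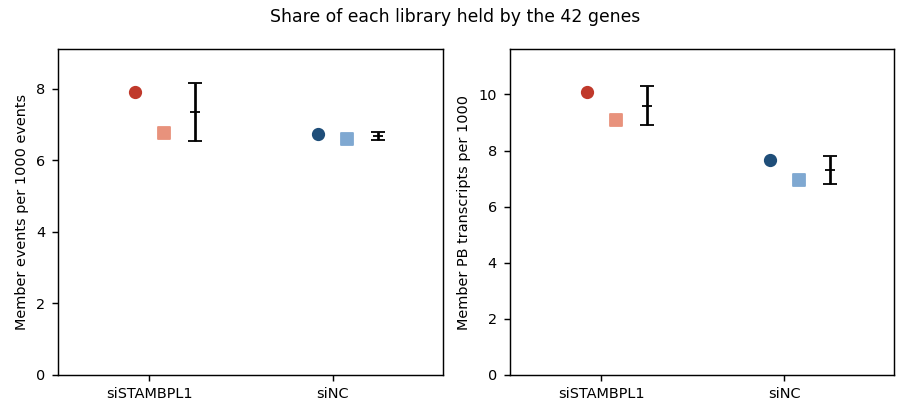
Events of the 42 genes per 1000 listed events (left panel) and PB transcripts in their events per 1000 PB transcripts (right panel), with 1 point per library (circles replicate 1, squares replicate 2) and the mean ± SD of each group of 2 beside it. The siSTAMBPL1 libraries sit at 10.1 and 9.10 PB transcripts per 1000, above the siNC libraries at 7.65 and 6.96.

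Most events of these genes were seen once. Of the 2088 distinct events, 1434 (68.7%) were listed in 1 library and 323 (15.5%) in all 4, close to the 66.1% and 16.0% over all genes. The 418 events whose forms both had Ensembl transcripts recurred far more: 281 of them (67.2%) were listed in all 4 libraries, against 49.8% of such events over all genes. The other 1670 events had an unannotated form, and 42 of those (2.51%) were listed in all 4 libraries, against 1.71% over all genes.

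Alternative first exons were the most frequent type. They made up 33.4% (95% interval 30.4 to 36.5) and 30.6% (27.1 to 34.4) of the events of the 42 genes in the siSTAMBPL1 libraries, and 35.3% (32.2 to 38.4) and 34.7% (31.7 to 37.9) in the siNC libraries. The exact Clopper-Pearson intervals here and below cover counting error only. Over all genes the share was 39.2% and 37.0% in siSTAMBPL1 and 40.7% and 41.1% in siNC, so the 42 genes had a lower share of first exon events in every library. Alternative last exons averaged 13.6% of the events of the 42 genes in siSTAMBPL1 and 14.5% in siNC, against 6.31% and 6.52% over all genes. NPC1 supplied 183 and ATG7 91 of the distinct last exon events, so this share rests largely on that pair of genes. Skipped exons averaged 23.9% in siSTAMBPL1 and 22.4% in siNC. Of the 341 distinct skipped exons, 126 had a length divisible by 3.

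The share of retained introns separated the groups, while their numbers did not. The 42 genes had 90 and 61 retained introns in the siSTAMBPL1 libraries and 62 and 69 in the siNC libraries. These were 9.51% (7.72 to 11.6) and 9.53% (7.37 to 12.1) of the events of the 42 genes in the siSTAMBPL1 libraries, against 6.55% (5.06 to 8.32) and 7.35% (5.76 to 9.21) in the siNC libraries. Over all genes the order was the other way, with 6.99% and 6.68% in siSTAMBPL1 and 7.30% and 7.31% in siNC. CTSA and HEXA held many of them. CTSA had 20 and 10 retained introns in the siSTAMBPL1 libraries and 9 and 12 in the siNC libraries, and HEXA had 13 and 7 in siSTAMBPL1 and 5 and 3 in siNC. Without these 2 genes, a choice made after their values were seen, the share was 6.79% and 7.45% in siSTAMBPL1 and 5.33% and 6.14% in siNC, which still did not overlap. The siSTAMBPL1 libraries held fewer PB transcripts, and what part this has in the share was not tested.

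The test across all genes called none of the 42. With limma on log2(scaled events + 1), Benjamini-Hochberg adjustment over 9933 genes passed 0 genes higher and 0 genes lower in siSTAMBPL1 (0% of genes in each direction), and at an unadjusted p under 0.05 it passed 293 higher (2.95%) and 434 lower (4.37%). Among the 41 of the 42 genes that had enough events to be tested, 1 was higher and 0 were lower at the unadjusted threshold. The change was above 0 in 26 of the 41 genes, against 53% of all genes, and their median was 0.23, against 0.05 over all genes. For PB transcripts per gene, 0 of 7055 genes passed in either direction after adjustment (0%). Unadjusted, 219 (3.1%) were higher and 261 (3.7%) lower, and 4 of the 35 tested genes of the group were higher and 0 lower. Their median change was 0.30, against -0.07 over all genes. For distinct first exon starts per gene, 0 of 6225 genes passed (0%) after adjustment. Unadjusted, 189 (3.04%) were higher and 356 (5.72%) lower, and the group had 1 in each direction among 29 tested, with a median of 0.17 against 0.04 over all genes. All of these changes are siSTAMBPL1 minus siNC on the log2(scaled number + 1) scale, on which a change of a gene with a handful of events looks smaller than it is. Without scaling for the library total the medians of the group were -0.15 for events, -0.22 for PB transcripts and -0.10 for first exons, while those of all genes moved to -0.29, -0.50 and -0.21.

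**Figure D2:**
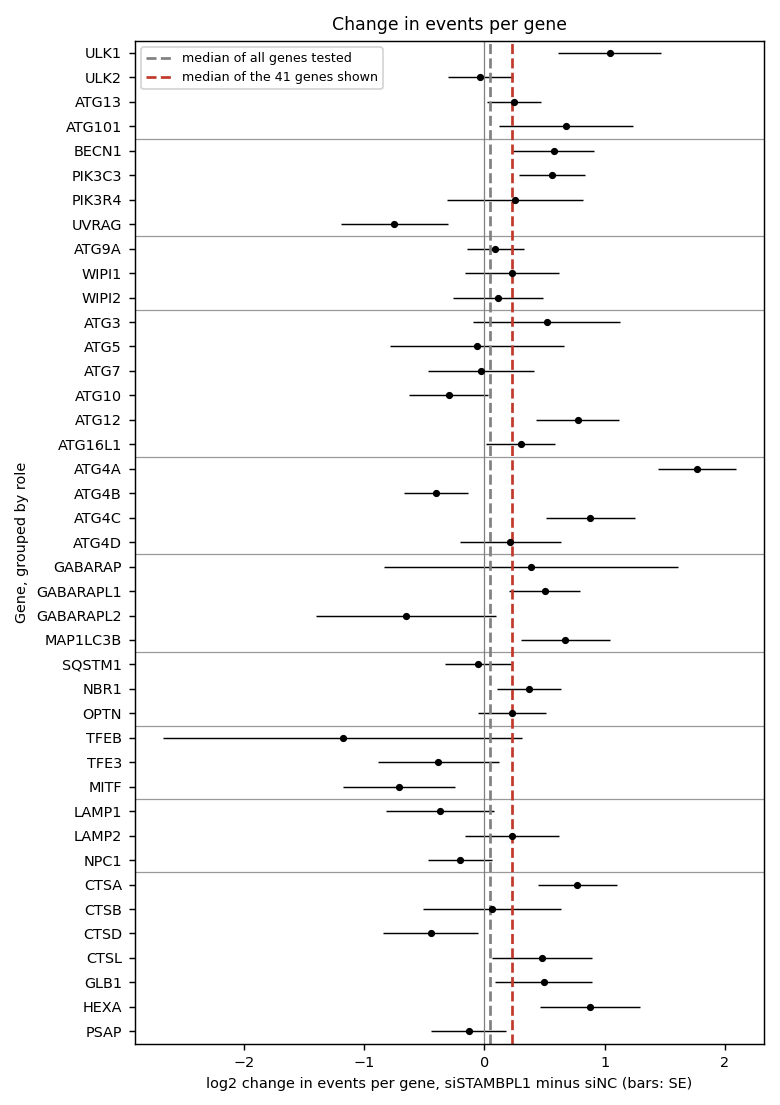
Log2 change in scaled events per gene (x axis, siSTAMBPL1 minus siNC, bars SE) for the 41 tested genes, grouped by role (y axis). Dashed lines mark the median of all 9933 genes at 0.05 and that of the 41 genes at 0.23. ATG4A stands farthest to the right at 1.77, and the MiT/TFE genes lie left of 0.

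Raw numbers of events fell into separate ranges for 11 of the 41 tested genes. In ULK1, ATG12, ATG4A and ATG4C, both siSTAMBPL1 libraries lay above both siNC libraries, as they did in 4.93% of all genes. In ULK2, UVRAG, ATG10, ATG4B, MITF, NPC1 and CTSD they lay below, as they did in 25.5% of all genes. Once numbers were scaled by the library total, 13 of the 41 lay above and 3 below, against 23% and 15% of all genes. The 3 below were UVRAG, ATG10 and ATG4B, and the groups overlapped for ULK2, MITF, NPC1 and CTSD.

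**Figure D3:**
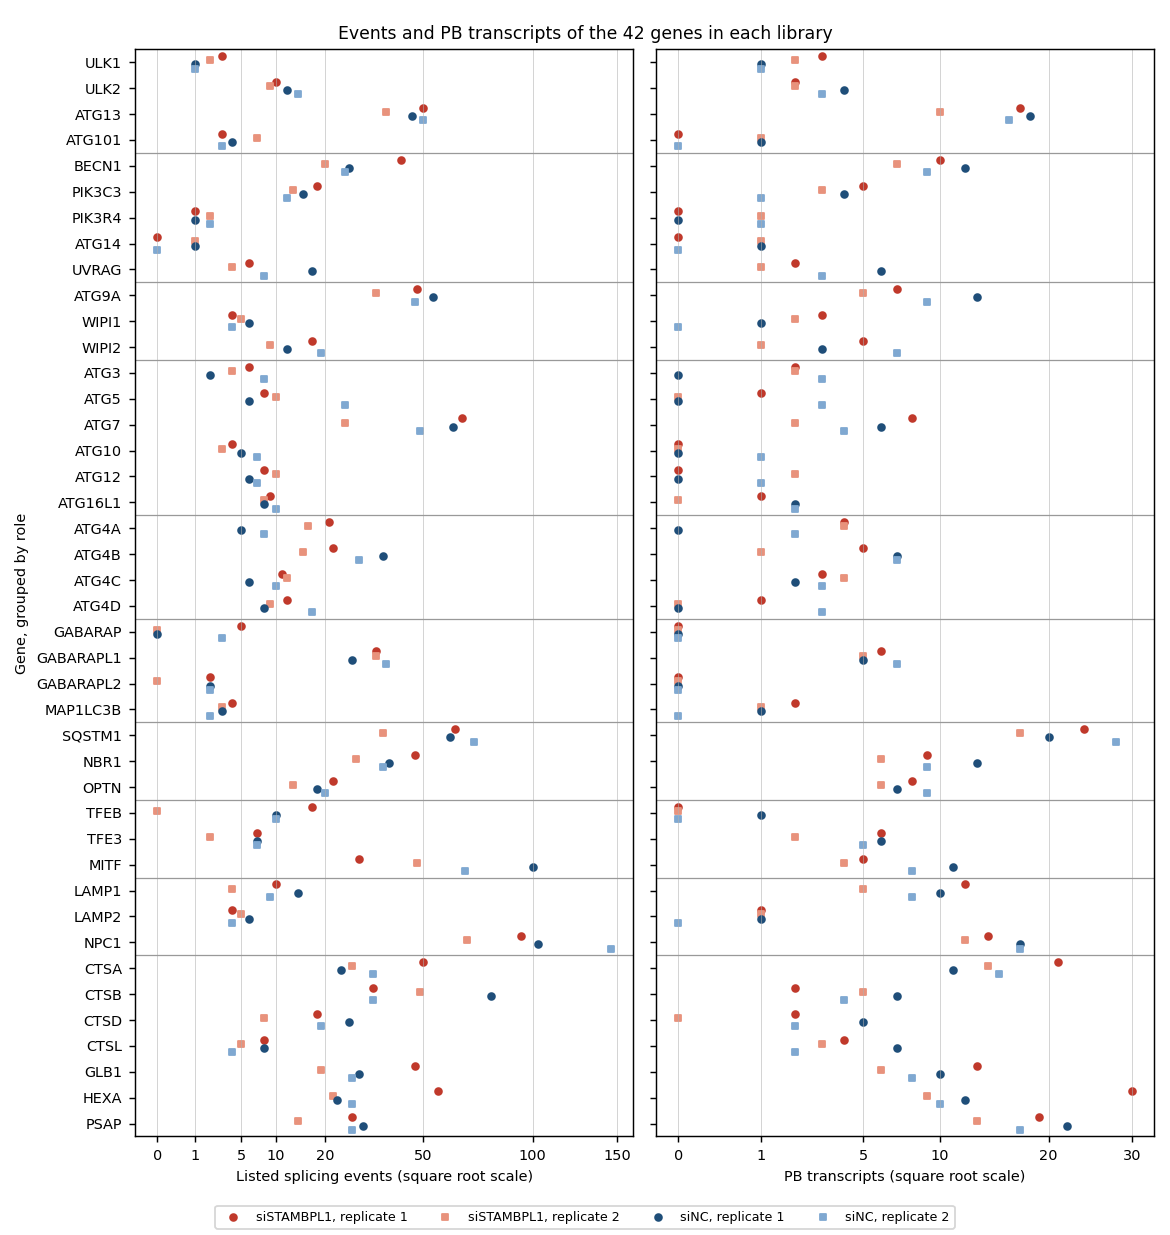
Listed events (left) and PB transcripts (right) of each of the 42 genes on square root axes, with 1 point per library and horizontal lines between roles. NPC1, MITF and SQSTM1 have the most events, and the points of ATG4A in siSTAMBPL1 (21 and 16 events) sit to the right of those in siNC (5 and 8).

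The initiation complex held the kinases ULK1 and ULK2 and their partners ATG13 and ATG101. ULK1 had 3 and 2 events in the siSTAMBPL1 libraries and 1 and 1 in the siNC libraries, all of them different events. The log2 change was 1.04 ± 0.43 (SE; limma adjusted p = 0.743). ULK2 had 10 and 9 events in siSTAMBPL1 and 12 and 14 in siNC, a change of -0.04 ± 0.27 (SE; limma adjusted p = 0.980). A 209-base exon of ULK2 (chromosome 17, 19783697 to 19783905) was skipped in 1 and 1 PB transcripts of the siNC libraries and kept in 3 and 1, and neither siSTAMBPL1 library listed that event. ATG101, which stabilises ATG13, listed 3 and 7 events in siSTAMBPL1 and 4 and 3 in siNC.

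ATG13, the regulatory subunit that binds the kinase, had 92 distinct events, with 50 and 37 in the siSTAMBPL1 libraries and 46 and 50 in the siNC libraries. A 97-base exon (chromosome 11, 46657095 to 46657191) was kept in 14 and 8 PB transcripts in siSTAMBPL1 and in 15 and 13 in siNC. It was skipped in 1 PB transcript of each library, a form that Ensembl transcripts did not carry. An unannotated 3' splice site 42 bases farther into the exon (46668836 in place of 46668794) was used by 1 and 1 PB transcripts in siSTAMBPL1 and 1 and 2 in siNC. Both forms thus recurred in all 4 libraries. First exon events differed more: ATG13 had 0 and 0 first exon starts in events of the siSTAMBPL1 libraries and 6 and 4 in the siNC libraries. PB transcripts began at 4 and 2 of those in siNC. Yet ATG13 had 17 and 10 PB transcripts in siSTAMBPL1 and 18 and 16 in siNC, and those in no first exon event have no start counted. The numbers thus show where a first exon event was listed, not which first exons were used. In siNC, 3 and 1 PB transcripts began between 46617541 and 46617577, at the annotated start. The change in first exon starts was -2.44 ± 0.34 (SE; limma adjusted p = 0.292), and with either siNC replicate left out it passed (limma adjusted p of 0.00403 without replicate 1 and 0.0086 without replicate 2), settings under which 521 and 512 genes of the whole table were called lower.

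In the lipid kinase complex, BECN1 had 42 and 20 events in the siSTAMBPL1 libraries and 26 and 25 in the siNC libraries. Its first exon events came from a single library: 13 distinct starts in siSTAMBPL1 replicate 1 and 0 in the other 3. Of these 13 starts, 12 lay between 42824251 and 42824287 on chromosome 17, with 9 PB transcripts. PB transcripts began at 6 of the 13, and the rest were Ensembl starts alone. The other libraries still held BECN1 PB transcripts, 7 in siSTAMBPL1 replicate 2 and 12 and 9 in siNC. Their starts were not counted, as they were in no first exon event. BECN1 is the scaffold of the complex. In both siNC libraries and in neither siSTAMBPL1 library, 1 and 1 PB transcripts retained a 1234-base intron (42814674 to 42815907) that 10 and 5 PB transcripts had spliced. The catalytic subunit PIK3C3 had 18 and 13 events in siSTAMBPL1 and 15 and 12 in siNC, with 5 and 3 PB transcripts against 4 and 1. UVRAG, a subunit of the complex that acts on late endosomes, had 6 and 4 events in siSTAMBPL1 and 17 and 8 in siNC. Its change was -0.75 ± 0.45 (SE; limma adjusted p = 0.765), and it was -0.25 without siNC replicate 1 and -1.25 without siNC replicate 2. In siNC replicate 1, 6 of the events were last exons that no other library listed. PIK3R4, the regulatory kinase subunit, had 1 and 2 events in siSTAMBPL1 and 1 and 2 in siNC, and ATG14, which targets the complex to the forming membrane, had 0 and 1 in siSTAMBPL1 and 1 and 0 in siNC.

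ATG9A, the lipid scramblase that travels in vesicles to the growing membrane, had 48 and 34 events in the siSTAMBPL1 libraries and 54 and 47 in the siNC libraries. An unannotated 165-base exon (chromosome 2, 219229010 to 219229174) was included in 1 and 1 PB transcripts in siSTAMBPL1 and 1 and 2 in siNC, so it recurred in all 4 libraries. WIPI2, which binds the lipid mark and recruits ATG16L1, had 17 and 9 events in siSTAMBPL1 and 12 and 19 in siNC. A 1249-base intron of WIPI2 (chromosome 7, 5225931 to 5227179) was retained in 1 and 1 PB transcripts in siSTAMBPL1 and 1 and 2 in siNC. WIPI1 had 3 and 2 PB transcripts in siSTAMBPL1 and 1 and 0 in siNC, a change of 1.61 ± 0.62 (SE; limma adjusted p = 0.646).

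The conjugation machinery did not separate the groups. It listed 101 and 60 events in the siSTAMBPL1 libraries and 89 and 106 in the siNC libraries, over ATG3, ATG5, ATG7, ATG10, ATG12 and ATG16L1. ATG7, the activating enzyme of the pathway, had 66 and 25 events in siSTAMBPL1 and 62 and 49 in siNC. Last exons made up 42 and 9 of these in siSTAMBPL1 and 40 and 22 in siNC. A last exon at 11434246 to 11434611 on chromosome 3 was carried by 1 and 1 PB transcripts in siSTAMBPL1 and by none in siNC, and that single exon made 5 of the 6 ATG7 events found in both siSTAMBPL1 libraries only. ATG12, the ubiquitin-like protein joined to ATG5, had 8 and 10 events in siSTAMBPL1 and 6 and 7 in siNC. Its change was 0.78 ± 0.35 (SE; limma adjusted p = 0.765). ATG10, the enzyme that makes this bond, had 4 and 3 events in siSTAMBPL1 and 5 and 7 in siNC, and ATG5 had 8 and 10 in siSTAMBPL1 and 6 and 25 in siNC. ATG3, the conjugating enzyme of the ATG8 proteins, had 6 and 4 events in siSTAMBPL1 and 2 and 8 in siNC.

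ATG16L1, which places the conjugating complex on the membrane, is known to be spliced in the region that follows its coiled coil. A 57-base exon (chromosome 2, 233273721 to 233273777) with Ensembl transcripts in both forms was listed in all 4 libraries. PB transcripts included it in 0 and 0 cases in siSTAMBPL1 and in 2 and 1 in siNC, and skipped it in 1 and 0 cases in siSTAMBPL1 and 0 and 0 in siNC. A 51-base exon next to it (233273991 to 233274041) was likewise listed in all 4. PB transcripts were too few for either exon to compare the groups.

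The ATG4 proteases, which trim ATG8 proteins and release them from membranes, included the gene with the greatest change of all 42. ATG4A (ENSG00000101844; RefSeq span chromosome X, 108088829 to 108154671, GRCh38.p14, plus strand) had 21 and 16 events in the siSTAMBPL1 libraries and 5 and 8 in the siNC libraries. The groups did not overlap, and the change was 1.77 ± 0.32 (SE; limma adjusted p = 0.426). PB transcripts numbered 4 and 4 in siSTAMBPL1 and 0 and 2 in siNC (limma adjusted p = 0.646).

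The excess of ATG4A lay in first exons. Its first exon events numbered 15 and 10 in the siSTAMBPL1 libraries and 0 and 0 in the siNC libraries, whereas its skipped exons numbered 3 and 4 in siSTAMBPL1 and 3 and 4 in siNC. Each of its 20 distinct first exon events involved an unannotated first exon that began between 108088670 and 108088684, up to 159 bases before the start of the RefSeq span of the gene. PB transcripts of first exon events that began there numbered 4 and 3 in siSTAMBPL1 and 0 and 0 in siNC. The start at 108088670, with an exon end at 108088970, was shared by both siSTAMBPL1 libraries with 2 and 2 PB transcripts. That exon was spliced to the exon that begins at 108126077. The RefSeq span of the gene starts inside it, at 108088829. Unannotated means here only that no list named an Ensembl transcript for the form, and whether RefSeq holds this exon was not looked up. The other form of those events began at 5 annotated starts farther downstream, which no PB transcript used in an event. Distinct first exon starts of ATG4A numbered 8 and 7 in siSTAMBPL1 and 0 and 0 in siNC. Of these, 3 and 2 in siSTAMBPL1 were starts of PB transcripts, and the rest were the 5 annotated starts. Each unannotated start forms an event with each annotated start, which multiplies the events. The change in distinct first exon starts was 3.24 ± 0.23 (SE; limma adjusted p = 0.257), so that this change did not pass either. It passed only without scaling for the library total, at an adjusted p of 0.0185.

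The ATG4A promoter window, from 250 bases before to 50 bases after a RefSeq start (GRCh38.p14), belongs to a start at 108091778, downstream of the start of the gene's span at 108088829. It is shown because all 5 annotated starts of these events fall in it and the unannotated exon does not. Capitals mark the 5 bases at which an annotated first exon of a listed event begins, at chrX:108091528-108091827 on the plus strand.
ATG4A: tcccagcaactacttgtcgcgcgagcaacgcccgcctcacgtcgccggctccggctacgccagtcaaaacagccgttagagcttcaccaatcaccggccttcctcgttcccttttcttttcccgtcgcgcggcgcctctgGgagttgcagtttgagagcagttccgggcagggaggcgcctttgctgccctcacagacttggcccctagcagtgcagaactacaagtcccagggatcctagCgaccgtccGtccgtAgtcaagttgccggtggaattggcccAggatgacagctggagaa

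ATG4C showed a like arrangement on a smaller scale. It had 11 and 12 events in the siSTAMBPL1 libraries and 6 and 10 in the siNC libraries, a change of 0.88 ± 0.37 (SE; limma adjusted p = 0.755). Unannotated starts between 62783798 and 62783843 on chromosome 1, up to 334 bases before the RefSeq start, were carried by 2 and 2 PB transcripts in siSTAMBPL1 and 0 and 1 in siNC. ATG4B, the protease that acts on most ATG8 proteins, lay the other way with 22 and 15 events in siSTAMBPL1 and 36 and 29 in siNC. Its change after scaling was -0.40 ± 0.27 (SE; limma adjusted p = 0.765). An unannotated 80-base exon of ATG4B (chromosome 2, 241659108 to 241659187) was included in 1 and 1 PB transcripts in siNC and was not listed in siSTAMBPL1. ATG4D had 12 and 9 events in siSTAMBPL1 and 8 and 17 in siNC.

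**Figure D4:**
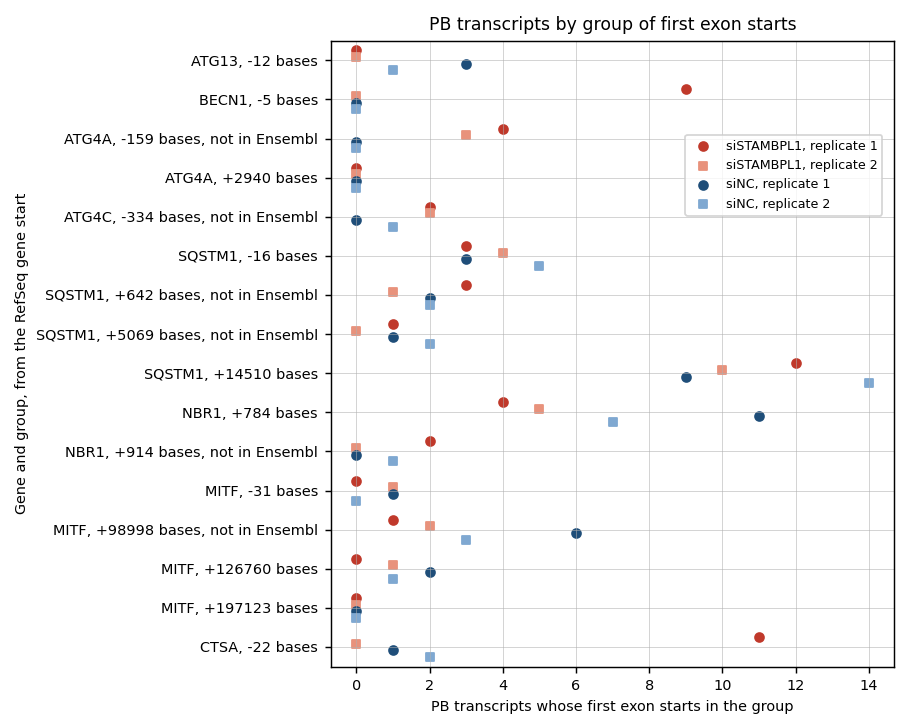
Number of PB transcripts in listed first exon events that begin in each group of first exon starts (x axis), by library, for 8 of the genes. PB transcripts in no first exon event are not counted, so a 0 does not show that the start was unused. The y axis gives each group's distance in bases from the RefSeq gene start, and groups with no Ensembl start are labelled. Starts within 50 bases form a group. The unannotated ATG4A group has 4 and 3 PB transcripts in siSTAMBPL1 and 0 and 0 in siNC, and the BECN1 group has 9 in siSTAMBPL1 replicate 1 and 0 elsewhere.

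Of the ATG8 proteins, GABARAPL1 had 34 and 34 events in the siSTAMBPL1 libraries and 27 and 37 in the siNC libraries, more than the other members of its family. First exons were 37 of its 65 distinct events. GABARAP had 5 and 0 events in siSTAMBPL1 and 0 and 3 in siNC, and GABARAPL2 had 2 and 0 in siSTAMBPL1 and 2 and 2 in siNC, with no PB transcript for either gene in any library. MAP1LC3B, the most used marker of autophagic membranes, had 4 and 3 events in siSTAMBPL1 and 3 and 2 in siNC.

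Among cargo receptors, SQSTM1 (also called p62) had 63 and 36 events in the siSTAMBPL1 libraries and 61 and 71 in the siNC libraries, with 24 and 17 PB transcripts against 20 and 28. No gene of the group had more PB transcripts summed over the libraries. Of its 160 distinct events, 114 were first exons, which began in several separate places. The starts that follow are those of PB transcripts in these first exon events. At the upstream promoter, 3 and 4 PB transcripts in siSTAMBPL1 and 3 and 5 in siNC began between 179806377 and 179806408 on chromosome 5. At a group 642 bases into the gene, 3 and 1 in siSTAMBPL1 and 2 and 2 in siNC began between 179807035 and 179807085. No list named an Ensembl start in this group. RefSeq does hold a start there, 26 bases before 179807035. The greatest number, 12 and 10 in siSTAMBPL1 and 9 and 14 in siNC, began between 179820903 and 179820921, 14510 bases into the gene. The order of these 3 places was the same in both groups of libraries.

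The window of this downstream SQSTM1 promoter from RefSeq (GRCh38.p14, chr5:179820655-179820954, plus strand) is shown for its number of counted starts. Among PB transcripts in first exon events of the 42 genes, more began in it than in any other window. Starts of other PB transcripts were not counted. Capitals mark the 7 bases at which a first exon of a listed event begins.
SQSTM1: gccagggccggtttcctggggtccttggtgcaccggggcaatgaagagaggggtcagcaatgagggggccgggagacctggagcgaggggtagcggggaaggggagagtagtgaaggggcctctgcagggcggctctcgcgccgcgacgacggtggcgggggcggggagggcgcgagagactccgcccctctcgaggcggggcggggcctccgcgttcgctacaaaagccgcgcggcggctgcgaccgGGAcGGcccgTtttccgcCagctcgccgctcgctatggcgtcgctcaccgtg

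SQSTM1 also had 3 unannotated forms in all 4 libraries. A splice donor 1065 bases downstream of the annotated one (179826291 in place of 179825226) was used in 6 and 4 PB transcripts in siSTAMBPL1 and 2 and 2 in siNC, against 18 and 11 with the annotated donor in siSTAMBPL1 and 15 and 24 in siNC. A 340-base intron (179833247 to 179833586) was retained in 2 and 2 PB transcripts in siSTAMBPL1 and 3 and 3 in siNC, and spliced in 19 and 12 in siSTAMBPL1 and 12 and 20 in siNC. At that intron, a donor 191 bases downstream of the annotated one (179833437 in place of 179833246) was used in 1 and 1 PB transcripts in siSTAMBPL1 and 2 and 2 in siNC, against 21 and 12 with the annotated donor in siSTAMBPL1 and 13 and 23 in siNC. The form with the 1065-base shift was more frequent in both siSTAMBPL1 libraries than in either siNC library, on numbers too small for a test of 1 event.

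NBR1, a receptor that shares the ubiquitin-binding design of SQSTM1, had 47 and 28 events in the siSTAMBPL1 libraries and 38 and 36 in the siNC libraries. A 210-base exon (chromosome 17, 43191372 to 43191581) was skipped in 2 and 1 PB transcripts in siSTAMBPL1 and 3 and 2 in siNC, and kept in 7 and 5 in siSTAMBPL1 and 10 and 6 in siNC. A 165-base exon (43196942 to 43197106) was skipped in 2 and 1 PB transcripts in siSTAMBPL1 and 1 and 1 in siNC. Both lengths are divisible by 3, and neither skipped form had an Ensembl transcript. OPTN, a receptor for damaged mitochondria and bacteria, had 22 and 13 events in siSTAMBPL1 and 18 and 20 in siNC.

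All 3 MiT/TFE transcription factors had changes below 0, with a median of -0.71, and none passed. MITF had 29 and 48 events in the siSTAMBPL1 libraries and 100 and 67 in the siNC libraries, and 5 and 4 PB transcripts against 11 and 8. The raw groups did not overlap in either number. Per 1000 listed events, MITF had 0.243 and 0.508 in siSTAMBPL1 and 0.713 and 0.471 in siNC, which overlap. Per 1000 PB transcripts it had 0.1964 and 0.2275 in siSTAMBPL1 and 0.3405 and 0.2443 in siNC, which do not. The change in events was -0.71 ± 0.47 (SE; limma adjusted p = 0.765), and it was -0.19 without siSTAMBPL1 replicate 1, -1.23 without siSTAMBPL1 replicate 2 and -0.41 without siNC replicate 1. It rested on events with an unannotated form: with Ensembl transcripts in both forms alone the change was 0.77, of the other sign.

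MITF is known for a series of promoters that give tissue-specific first exons, and 156 of its 172 distinct events were first exons. First exon events numbered 20 and 42 in siSTAMBPL1 and 89 and 60 in siNC. An unannotated region between 69838462 and 69838532 on chromosome 3, 98998 bases into the gene, held 8 distinct starts, used by 1 and 2 PB transcripts in siSTAMBPL1 and 6 and 3 in siNC. A first exon from 69838493 to 69838632 in it was carried by 1 PB transcript in every library. An added start there can form an event with each of several other first exons. The starts from 69936587 to 69936629, at the promoter farthest downstream in RefSeq, were listed in siNC replicate 1 only, with no PB transcript. TFEB, the factor best known for lysosomal genes, had 17 and 0 events in siSTAMBPL1 and 10 and 10 in siNC, a change of -1.18 ± 1.49 (SE; limma adjusted p = 0.819). Its sign rests on siSTAMBPL1 replicate 2, without which it was 0.93. TFE3 had 7 and 2 events in siSTAMBPL1 and 7 and 7 in siNC.

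At the lysosomal membrane, NPC1, which exports cholesterol, had the most events of all 42 genes, 94 and 68 in the siSTAMBPL1 libraries and 103 and 146 in the siNC libraries. Its change after scaling was -0.20 ± 0.27 (SE; limma adjusted p = 0.830). Last exons made up 58 and 44 of these events in siSTAMBPL1 and 62 and 74 in siNC. An unannotated last exon that ended at 23531501 on chromosome 18 was carried by 5 and 3 PB transcripts in siSTAMBPL1 and 6 and 4 in siNC, and the same exon ending at 23531502 by 2 and 4 in siSTAMBPL1 and 3 and 5 in siNC. Ends a single base apart count as separate events on the lists. A 90-base exon of NPC1 (23540448 to 23540537) was skipped in 2 and 1 PB transcripts in siNC and kept in 15 and 15, and neither siSTAMBPL1 library listed a skip. Introns of 340 and 97 bases were retained in all 4 libraries, the first in 1 and 3 PB transcripts in siSTAMBPL1 and 1 and 1 in siNC, the second in 2 and 2 in siSTAMBPL1 and 2 and 1 in siNC.

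LAMP1, a major glycoprotein of the lysosomal membrane, had 10 and 4 events in the siSTAMBPL1 libraries and 14 and 9 in the siNC libraries. A 159-base exon (chromosome 13, 113310709 to 113310867) was skipped in 3 and 1 PB transcripts in siSTAMBPL1 and 1 and 1 in siNC, and kept in 7 and 2 in siSTAMBPL1 and 8 and 7 in siNC. The skipped form was unannotated, and the length of the exon is divisible by 3. LAMP2, the membrane protein whose alternative last exons give 3 known forms, had 4 and 5 events in siSTAMBPL1 and 6 and 4 in siNC. The 2 last exon events that join its 3 last exons were listed in all 4 libraries with no PB transcript, so these lists do not show which LAMP2 form was found.

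The 7 hydrolases and activators held the most events of any role, 239 and 144 in the siSTAMBPL1 libraries and 219 and 170 in the siNC libraries. HEXA, the alpha subunit of beta-hexosaminidase, had 56 and 22 events in siSTAMBPL1 and 23 and 27 in siNC, and 30 and 9 PB transcripts against 12 and 10. Replicate 1 of siSTAMBPL1 stands apart, and replicate 2 lies below both siNC libraries in raw numbers. Per 1000 listed events, HEXA had 0.469 and 0.233 in siSTAMBPL1 and 0.164 and 0.190 in siNC, so that both siSTAMBPL1 libraries lay above. The change in events was 0.88 ± 0.42 (SE; limma adjusted p = 0.765), and it was 0.38 without siSTAMBPL1 replicate 1 and 1.37 without siSTAMBPL1 replicate 2. For events with Ensembl transcripts in both forms it was -0.01. A 684-base intron (chromosome 15, 72345551 to 72346234) was retained in 2 and 4 PB transcripts in siSTAMBPL1 and 3 and 2 in siNC, and spliced in 14 and 1 in siSTAMBPL1 and 2 and 2 in siNC. A 258-base exon (72370431 to 72370688) and a 452-base exon (72345677 to 72346128) were each included in 1 and 1 PB transcripts in siSTAMBPL1 and were listed in neither siNC library. HEXA had 7 events in both siSTAMBPL1 libraries only and 0 in both siNC libraries only, and 22 of its 70 distinct events reached past the RefSeq ends of the gene.

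CTSA, which protects beta-galactosidase and neuraminidase in the lysosome, had 50 and 27 events in the siSTAMBPL1 libraries and 24 and 33 in the siNC libraries. PB transcripts numbered 21 and 14 in siSTAMBPL1 and 11 and 15 in siNC. These raw numbers overlapped. Per 1000 listed events, CTSA had 0.418 and 0.286 in siSTAMBPL1 and 0.171 and 0.232 in siNC. Per 1000 PB transcripts it had 0.8247 and 0.7962 in siSTAMBPL1 and 0.3405 and 0.458 in siNC. The changes were 0.77 ± 0.33 (SE) for events and 0.97 ± 0.28 (SE) for PB transcripts, with limma adjusted p-values of 0.759 and 0.646. The change in events was 0.50 without siSTAMBPL1 replicate 1. A 339-base intron (chromosome 20, 45892881 to 45893219) was retained in 7 and 1 PB transcripts in siSTAMBPL1 and 5 and 4 in siNC, and spliced in 8 and 8 in siSTAMBPL1 and 5 and 7 in siNC. Within that intron, a 167-base exon (45892979 to 45893145) was included in 2 and 1 PB transcripts in siSTAMBPL1 and listed in neither siNC library. A 212-base exon (45892273 to 45892484) was skipped in 1 and 1 PB transcripts in siNC and kept in 4 and 4, and neither siSTAMBPL1 library listed a skip. Starts in first exon events of CTSA numbered 14 and 0 in siSTAMBPL1 and 2 and 3 in siNC. PB transcripts began at 9 and 0 of these in siSTAMBPL1 and at 1 and 1 in siNC. Those in no such event were not counted.

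**Figure D5:**
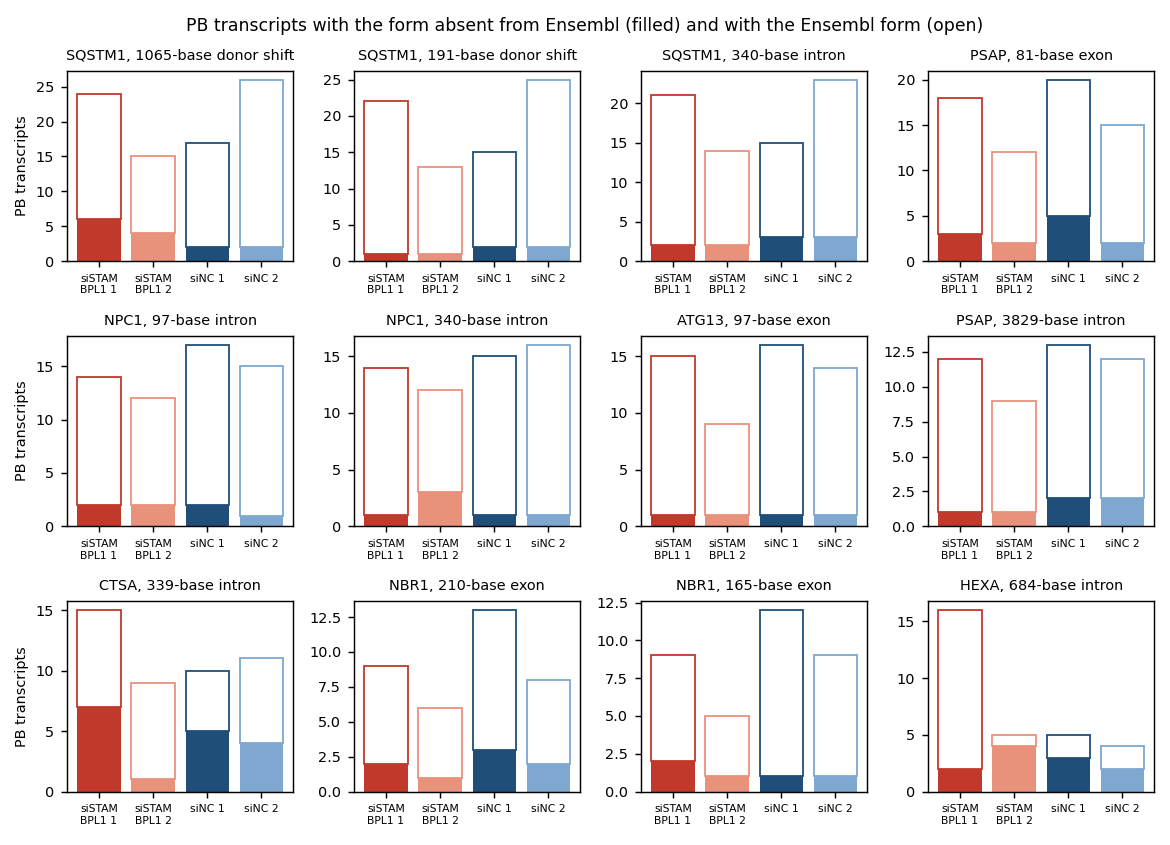
PB transcripts in each library (y axis) that carry the unannotated form (filled) and the Ensembl form (open, stacked on top) of the 12 skipped exon, retained intron and donor events with the unannotated form in all 4 libraries and the most PB transcripts: skipping of the named exon, retention of the named intron or use of the shifted donor. The filled bars stay at 5 or fewer except for CTSA (7) and SQSTM1 (6) in siSTAMBPL1 replicate 1.

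PSAP, the precursor of the saposins that help to break down sphingolipids, had 27 and 14 events in the siSTAMBPL1 libraries and 30 and 27 in the siNC libraries. An annotated choice between acceptors 9 bases apart, at 71822016 and 71822007 on chromosome 10, was listed in all 4 libraries. PB transcripts with the longer exon numbered 0 in each library, and those with the shorter one numbered 12 and 8 in siSTAMBPL1 and 11 and 11 in siNC. Every PB transcript of this event thus had the shorter exon. An 81-base exon (71819031 to 71819111) was skipped in 3 and 2 PB transcripts in siSTAMBPL1 and 5 and 2 in siNC, and kept in 15 and 10 in siSTAMBPL1 and 15 and 13 in siNC. A 149-base exon (71826266 to 71826414) was included in 1 and 1 PB transcripts in siSTAMBPL1 and not listed in siNC, and a 57-base exon (71825837 to 71825893) was skipped in 1 and 1 PB transcripts in siNC and not listed as an event in siSTAMBPL1.

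CTSB, a cysteine protease, had 33 and 49 events in the siSTAMBPL1 libraries and 79 and 33 in the siNC libraries, and CTSL, of the same class, had 8 and 5 in siSTAMBPL1 and 8 and 4 in siNC. CTSD, an aspartic protease, had 18 and 8 events in siSTAMBPL1 and 26 and 19 in siNC. The CTSD groups did not overlap in raw numbers, but did per 1000 listed events, at 0.151 and 0.0847 in siSTAMBPL1 and 0.185 and 0.134 in siNC. The change after scaling was -0.45 ± 0.40 (SE; limma adjusted p = 0.765), and with a library left out it ran between -0.84 without siSTAMBPL1 replicate 1 and -0.06 without siSTAMBPL1 replicate 2. GLB1, the lysosomal beta-galactosidase, had 47 and 19 events in siSTAMBPL1 and 29 and 27 in siNC. A last exon from 32961111 to 32961621 on chromosome 3 was carried by 1 and 1 PB transcripts in siSTAMBPL1 and by none in siNC, and it made all 5 GLB1 events found in both siSTAMBPL1 libraries only.

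Over the 42 genes, 44 of 2088 distinct events (2.11%) were listed in both siSTAMBPL1 libraries and in neither siNC library, against 1.09% over all genes, and 50 (2.39%) in both siNC libraries only, against 3.44% over all genes. The 44 fell in 12 genes and the 50 in 16. Many rest on a single exon that forms several events, as in ATG4A, ATG7 and GLB1, so these events are not independent. Events whose unannotated form had PB transcripts in all 4 libraries numbered 39, in 11 genes. They were 11 retained introns, 8 last exons, 7 first exons and 6 skipped exons. The others were 3 alternative donors, 3 pairs of mutually exclusive exons and 1 alternative acceptor. These too are not independent, and distinct forms are fewer. All 7 first exon events held the same MITF exon. The 8 last exon events held an NPC1 last exon with ends 1 base apart. The 3 mutually exclusive pairs and 1 skipped exon event held the same ATG9A exon. The 39 events were found with and without knockdown.

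A short promoter motif was looked up because MiT/TFE factors bind it. RefSeq promoter windows were available for 36 of the 42 genes, in 46 windows. The letters CACGTG, the core of the motif, read the same on both strands. They stood in 5 of the 46 windows (LAMP1, CTSA, ATG3, CTSD and ATG14) and in 7.26% of all 35116 windows. The longer TCACGTGA, which contains the core, also reads the same on both strands. It stood in 3 of the 46 windows (LAMP1, CTSA and ATG3) and in 0.98% of all windows. A match is only a match of letters. LAMP1 had 6 copies of the core, 2 of them within the longer motif, and CTSA had 2, 1 of them within the longer motif. Both windows are shown because first exons of listed events began in them: 8 of the 9 distinct starts of LAMP1 and 11 of the 16 of CTSA. PB transcripts of first exon events that began in the LAMP1 window numbered 3 and 0 in siSTAMBPL1 and 3 and 2 in siNC. Those in the CTSA window numbered 10 and 0 in siSTAMBPL1 and 1 and 2 in siNC. Starts of PB transcripts in no such event were not counted, so a 0 does not show that the window was unused. In all, LAMP1 had 12 and 5 PB transcripts in siSTAMBPL1 and 10 and 8 in siNC. CTSA had 21 and 14 in siSTAMBPL1 and 11 and 15 in siNC. Capitals mark the core motif. The LAMP1 window is chr13:113296989-113297288 and the CTSA window chr20:45891085-45891384, both on the plus strand of GRCh38.p14.
LAMP1: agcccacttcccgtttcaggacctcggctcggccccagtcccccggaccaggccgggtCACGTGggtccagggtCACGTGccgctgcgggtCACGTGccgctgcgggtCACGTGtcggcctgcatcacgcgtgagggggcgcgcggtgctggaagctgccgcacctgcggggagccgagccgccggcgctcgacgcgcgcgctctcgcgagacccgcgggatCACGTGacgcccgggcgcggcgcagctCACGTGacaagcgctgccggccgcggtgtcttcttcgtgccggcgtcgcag
CTSA: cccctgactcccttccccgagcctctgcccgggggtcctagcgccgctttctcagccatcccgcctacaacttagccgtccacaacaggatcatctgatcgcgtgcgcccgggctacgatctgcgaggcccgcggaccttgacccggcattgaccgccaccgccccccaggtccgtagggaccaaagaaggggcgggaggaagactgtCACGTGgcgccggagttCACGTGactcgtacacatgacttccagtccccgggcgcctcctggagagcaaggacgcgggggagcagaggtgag

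Other genes of the same pathways gave a like picture. Of 128 further autophagy and lysosome genes, 104 were tested, and 0 passed in either direction after adjustment. Their change in events was above 0 in 68 and below 0 in 36, with a median of 0.19, and at an unadjusted p under 0.05 there were 3 higher and 2 lower. FLCN, M6PR, CTSV, FNIP2 and AMBRA1 were among those with the smallest p. FLCN, which controls the nutrient signal to TFE3 and TFEB, had 1 and 2 events in siSTAMBPL1 and 7 and 12 in siNC (-1.74 ± 0.48, SE, limma adjusted p of 0.587). M6PR, which sorts enzymes to the lysosome, had 21 and 22 in siSTAMBPL1 and 15 and 14 in siNC (0.93 ± 0.28, SE, limma adjusted p of 0.625). CTSV had 0 and 0 in siSTAMBPL1 and 2 and 7 in siNC, FNIP2 had 6 and 3 in siSTAMBPL1 and 2 and 2 in siNC, and AMBRA1 had 27 and 21 in siSTAMBPL1 and 18 and 21 in siNC.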

How the data were processed

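The authors deposited 1 list of alternative splicing events per library, with columns for chromosome, gene, event and the transcripts of each form, per the file headers. These lists hold identifiers and no read number. The deposited identifiers were turned into numbers of distinct events, PB transcripts and first exon starts per gene. Coordinates are on hg38, which the submitters' processing notes name. No aligner or caller is named in the sources used here. Gene symbols came from the RefSeq table of GRCh38.p14: a match needed 60% or more of the positions in a gene's events to fall inside a RefSeq gene of the same strand (50 bases of slack), 20% or more of that gene to be covered, and a score 1.5 times that of the runner-up. This named 11330 of 11931 Ensembl genes. ATG14 needed a looser match by position.

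Numbers were scaled by the library total, and log2(scaled number + 1) was fitted with limma 3.58.1 (eBayes with trend, R 4.3.3) over genes with at least 5 events, 3 PB transcripts or 3 first exon starts, with Benjamini-Hochberg adjustment at 0.05. The fit was also run on simulated numbers, drawn gene by gene with a set spread. On these lists 1 exon can form several events, so that run does not show how the fit behaves on them. Lists that shared an event named the same Ensembl transcripts for it in all cases (0 mismatches). Event lists without quantities allow no test of single events. Promoter windows are from RefSeq. The 42 genes, the role lists and the pathway list were chosen with earlier results of these libraries known. Values are named for genes whose libraries separate, with the greatest change, with the most events or with events in 1 group only, and for the 6 pathway genes with the smallest p, of which 1 is not reported here.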

Additional observations from a re-analysis of the deposited data

How the results depend on the processing

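The lists give presence only, so depth cannot be read from them, and the siSTAMBPL1 libraries held fewer PB transcripts. For events per gene, 0 genes passed in either direction except that leaving out a library in turn gave 0 to 1 higher and 0 to 330 lower, with the most lower calls without siNC replicate 1 or 2 (330 and 329). Events with Ensembl transcripts in both forms gave 4 higher and 7 lower, and events found in at least 2 libraries 17 higher and 96 lower. In such a fit the lone library is taken to vary like the other group. For PB transcripts per gene the same omissions gave 0 to 233 lower (233 without siNC replicate 1, 105 without siNC replicate 2). For first exon starts they gave 0 to 2 higher and 0 to 521 lower (521 and 512 without siNC replicates 1 and 2), and 0 to 1 of the 42 genes, which was ATG13. Without scaling for the library total, 66 genes were higher and 224 lower in first exon starts, with 1 of the 42 past the threshold, which was ATG4A. None of the 42 passed in events or PB transcripts under any alternative run. The medians of the group without scaling were -0.15, -0.22 and -0.10 for events, PB transcripts and first exons, and with a library left out in turn the median for first exons ran between -0.186 and 0.25 (-0.186 without siSTAMBPL1 replicate 1).

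With the replicate number as a block, PB transcripts gave 2 genes higher and 4 lower, and it changed no other count of calls. Deviations of same-numbered libraries correlated at 0.019 for events, so the numbers are not shown to pair the libraries.

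For single genes, events with Ensembl transcripts in both forms turned the change in events to 0.010 for CTSD, -0.015 for HEXA, 0.77 for MITF, 0.42 for NPC1, 0.15 for ULK2 and 0.13 for UVRAG. Events found in at least 2 libraries turned CTSD to 0.18 and MITF to 0.51, and events with a PB transcript turned ULK2 to 0.023. Of the 15 genes named for their change in events, STAMBPL1 included, leaving out a library moved the change by over 1.5 times or turned it in 13, and not in ATG4A and ULK1. Leaving out a library turned NPC1 (between -0.44 and 0.036, above 0 without siNC replicate 2), TFEB (between -3.29 and 0.93, above 0 without siSTAMBPL1 replicate 2) and ULK2 (between -0.13 and 0.057, above 0 without siSTAMBPL1 replicate 1 or siNC replicate 2). The first exon share of the events of the 42 genes, as siSTAMBPL1 minus siNC, was -2.98 percentage points, and was -1.17 for events found in at least 2 libraries, -4.58 for events with a PB transcript and 0.45 for events with Ensembl transcripts in both forms. After scaling by the library total, an alternative chosen after seeing the data, 13 of the 41 tested genes lay above and 3 below. The difference in PB transcripts of the 42 genes per 1000 was 2.29 and ran between 1.80 and 2.79 with a library left out, also chosen after seeing the data. The causes of these differences were not tested.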
